A study of Mus musculus with 2 samples.

Results

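The small heat shock proteins are chaperones that lack ATPase activity and share an alpha-crystallin domain, and the genes described here are the 7 of them known from striated muscle, Cryab, Hspb1, Hspb2, Hspb3, Hspb6, Hspb7 and Hspb8, together with Bag3. They were picked by gene name, and these 8 genes with 19 annotated transcripts stood among 55536 Ensembl genes, of which 22015 were nuclear and protein-coding. RNA-seq was made from hearts of female B6CASTF1/J mice, hybrids between the strains C57BL/6J and CAST/EiJ, that were 18 to 20 months old. The 2 libraries, replicates 1 and 2, form 1 group with no treatment and no second group, so every difference below is a spread between libraries or between quantifications and not an effect of a condition. The input was 300 ng of total RNA, and the ERCC spike-in mix is named as one for stranded libraries with reduced ribosomal RNA. The labels give the libraries separate biosamples but the same donor entry, so what separates them may be partly technical. Values were deposited as TPM, a relative abundance corrected for transcript length, by 2 quantifications that are named here after the column layout of their tables, kallisto and RSEM.

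Small heat shock proteins hold unfolding proteins in large, changing oligomers until ATP-driven chaperones of the HSP70 family refold them or pass them on for degradation. In heart muscle they are known for binding desmin, actin, titin and other filament proteins under mechanical and thermal stress. BAG3 is a scaffold that links HSPB8 and HSP70 and directs damaged filament proteins, such as filamin C, to autophagy, and human mutations in CRYAB, HSPB8 and BAG3 cause myopathies.

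Heart tissue was recognisable in both libraries. All 7 cardiomyocyte markers were at 1 TPM or more, with summed levels of 32615 and 34053 TPM in replicates 2 and 1 of the RSEM-layout tables. Skeletal muscle, which also expresses these chaperones, left almost no trace, since 0 of 8 of its markers reached 1 TPM in both libraries, Myh2, Myh4 and Myog were at 0 and the sums were 1.88 and 1.99 TPM. The libraries differed in other tissue components. The sum of 6 adipocyte markers was 3.90 times as high in replicate 2 as in replicate 1 (345 against 88.4 TPM), that of 4 atrial markers 2.42 times (1066 against 441 TPM) and that of 5 lymphocyte markers 6.08 times (12.4 against 2.03 TPM, with 0 of 5 at 1 TPM in both), while 5 erythroid markers summed to 11150 against 23409 TPM, 0.476 times as high. Smooth muscle, known for HSPB1 and HSPB6, was nearly even, with 5 of 5 markers at 1 TPM or more and sums of 136 and 138 TPM. In bulk tissue fewer cells of a type and less RNA per cell cannot be told apart. The 2 libraries held 36926429 (replicate 2) and 35897521 (replicate 1) expected counts.

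Heat shock genes are switched on by heat shock factors, which bind inverted repeats of the unit GAA, and the region before each transcript start was therefore read for this motif. RefSeq start windows (build GRCm38.p6, 250 bases before to 50 bases after a start) were matched for 6 of the 8 members, with 2 windows for Hspb6. No window was matched for Cryab or Hspb2. The core GAANNTTC, which reads the same on both strands, occurred in 5 of the 7 windows, against 7.86% of 32851 windows of all genes. Below, 1 window is printed for each of the 5 members with the core, and the second, upstream window of Hspb6 is added because the quantifications disagree on which of its starts is used. Letters run 5′ to 3′ on the strand of the gene, with matches of GAANNTTC and of the TATA box letters TATAAA in capitals, and each stretch ends at most 30 bases after the last annotated start in its window.
Hspb1, chr5:135887669-135887948, plus strand: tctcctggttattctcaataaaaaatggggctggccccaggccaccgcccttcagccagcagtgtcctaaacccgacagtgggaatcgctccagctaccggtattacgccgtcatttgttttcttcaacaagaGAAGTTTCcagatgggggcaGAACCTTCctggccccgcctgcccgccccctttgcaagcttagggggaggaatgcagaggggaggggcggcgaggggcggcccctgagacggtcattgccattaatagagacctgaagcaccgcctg
Hspb6, downstream start, chr7:30553051-30553330, plus strand: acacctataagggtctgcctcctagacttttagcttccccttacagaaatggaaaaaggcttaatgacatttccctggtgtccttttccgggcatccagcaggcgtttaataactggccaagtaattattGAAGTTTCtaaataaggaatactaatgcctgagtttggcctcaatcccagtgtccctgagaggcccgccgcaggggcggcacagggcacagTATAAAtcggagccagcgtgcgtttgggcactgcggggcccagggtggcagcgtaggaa
Hspb6, upstream start, chr7:30552290-30552569, plus strand: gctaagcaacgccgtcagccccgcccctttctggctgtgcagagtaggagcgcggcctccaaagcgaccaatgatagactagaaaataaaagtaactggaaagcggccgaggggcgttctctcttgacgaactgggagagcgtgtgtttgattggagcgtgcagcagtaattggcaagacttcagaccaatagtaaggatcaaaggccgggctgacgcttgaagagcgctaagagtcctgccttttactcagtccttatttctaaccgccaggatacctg
Hspb8, chr5:116422835-116423114, minus strand: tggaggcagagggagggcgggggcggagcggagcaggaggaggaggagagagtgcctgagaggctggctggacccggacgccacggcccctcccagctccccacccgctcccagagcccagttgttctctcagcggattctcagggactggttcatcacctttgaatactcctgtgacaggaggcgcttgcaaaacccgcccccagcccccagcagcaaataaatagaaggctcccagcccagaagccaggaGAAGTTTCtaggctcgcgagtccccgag
Bag3, chr7:128523333-128523632, plus strand: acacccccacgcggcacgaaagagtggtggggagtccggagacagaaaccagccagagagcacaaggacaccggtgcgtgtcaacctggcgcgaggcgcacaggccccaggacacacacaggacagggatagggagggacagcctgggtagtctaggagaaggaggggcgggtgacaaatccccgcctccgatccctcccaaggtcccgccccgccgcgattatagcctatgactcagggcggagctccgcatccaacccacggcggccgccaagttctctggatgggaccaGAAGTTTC
Hspb3, chr13:113663647-113663926, minus strand: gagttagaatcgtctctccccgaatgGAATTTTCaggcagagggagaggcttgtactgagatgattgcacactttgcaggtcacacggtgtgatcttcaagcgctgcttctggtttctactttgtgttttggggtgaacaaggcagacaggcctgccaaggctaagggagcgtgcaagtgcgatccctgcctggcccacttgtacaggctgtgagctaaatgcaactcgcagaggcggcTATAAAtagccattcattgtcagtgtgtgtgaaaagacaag

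Hspb1, Hspb8, Bag3 and the downstream window of Hspb6 held the same 8 letters, GAAGTTTC, which occurred in 1.21% of all windows on either strand. These letters were picked after the matches were seen. Relative to the RefSeq start, counted as base 1 with base -1 before it, the match began at base -117 in Hspb1, -120 in Hspb6, 3 in Hspb8 and 43 in Bag3. Hspb1 had a second core, GAACCTTC, at base -97, and the core of Hspb3, GAATTTTC, began at base -224. A longer form, in which the core is followed after any 2 bases by a further GAA, was in 0 of the 7 windows and in 0.603% of all windows. TATAAA was found in the windows of Hspb3 and of the downstream start of Hspb6, against 13.6% of all windows. In Hspb3 it lay inside a match to the binding site of the muscle factor MEF2, which 3.19% of windows held. The serum response factor site (CArG box) was in 0 of the 7, against 1.63% of all windows. Neither window without the core, that of Hspb7 and the upstream one of Hspb6, had any of the motifs searched. Matches are runs of letters and no measure of binding.

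**Figure D1:**
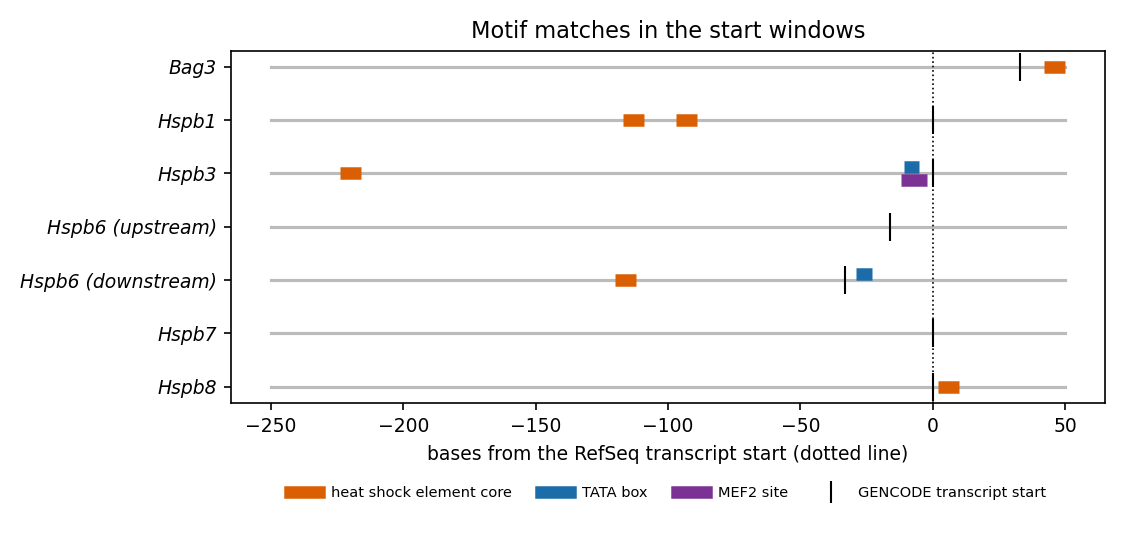
Positions of motif matches in the 7 start windows of 6 members, in bases from the RefSeq start; orange bars are GAANNTTC, blue bars TATAAA, purple bars MEF2 sites and black ticks GENCODE transcript starts. Cores lie before the start in Hspb1, Hspb3 and the downstream window of Hspb6, and just after it in Hspb8 and Bag3.

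Every member was expressed in the aged heart, and together they formed a graded series led by Cryab. Both libraries had all 8 at 1 TPM or more, as they had 49.9% of nuclear protein-coding genes, and 6 of the 8 reached 100 TPM in both, against 2.49%. Their summed level was 3853 and 3641 TPM in replicates 2 and 1 of the kallisto-layout tables, and 2714 and 2811 TPM in the RSEM-layout tables. That was 0.729% ± 0.023 and 0.679% ± 0.0012 of the TPM of all nuclear protein-coding genes (SD, n = 2 each). The median level of the members was 224 TPM in the kallisto-layout and 178 TPM in the RSEM-layout tables, where nuclear protein-coding genes with a mean of 1 TPM or more had medians of 9.71 and 8.58 TPM.

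Cryab encodes alpha-B-crystallin, which binds desmin and titin and is the best known lens and heart member of the family (chromosome 9, 50751325 to 50756636, plus strand). It had 2266 and 2025 TPM in replicates 2 and 1 of the kallisto-layout tables, against 1356 and 1360.5 TPM in the RSEM-layout tables. Within a table the libraries were close, while both kallisto-layout values lay above both RSEM-layout values. By mean TPM it ranked 20 and 25 among the 22015 nuclear protein-coding genes. Of the summed TPM of the 8 members it held 57.2% ± 2.27 and 49.2% ± 1.10.

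Hspb1 encodes HSP25, the mouse form of HSP27, a stress-phosphorylated chaperone of actin filaments (chromosome 5, 135887919 to 135889563). Its level was 271 and 249 TPM in replicates 2 and 1 of the kallisto-layout tables, against 195 and 186 TPM in the RSEM-layout tables. Replicate 2 was slightly the higher in both. Of the 1030 different 31-nt words of its transcripts, 52.3% also occur in the processed pseudogene Hsp25-ps1, so reads can be split between them. Hsp25-ps1 was listed at 19.4 and 13.6 TPM in replicates 2 and 1 of the kallisto-layout tables, and at 22.3 and 22.8 TPM in the RSEM-layout tables. With it added, the RSEM-layout mean of Hspb1 would be 213 TPM in place of 190.4 TPM.

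Hspb6 encodes HSP20, which is phosphorylated by cyclic nucleotide-dependent kinases and is known for protecting cardiomyocytes (chromosome 7, 30552178 to 30555443). It stood at 372 and 382 TPM in replicates 2 and 1 of the kallisto-layout tables, against 329 and 353 TPM in the RSEM-layout tables. These 4 values spanned a narrow range, with replicate 1 higher in each table.

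Hspb7, the cardiovascular small heat shock protein known for its role at actin thin filaments, was second to Cryab (chromosome 4, 141420779 to 141425311). Values of 560.3 and 605 TPM in replicates 2 and 1 were listed in the kallisto-layout tables, against 496 and 559 TPM in the RSEM-layout tables. Its single transcript of 2769 nt is the longest of the family, and in expected counts, which are not corrected for length, it led with 38960 in replicate 2 and 41705 in replicate 1, against 24871 and 23025 for Cryab.

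Hspb2 and Hspb3, whose proteins form an oligomer of their own in muscle, were the lowest members. Hspb2 (chromosome 9, 50751078 to 50752354, minus strand) had 58.8 and 56.1 TPM in replicates 2 and 1 of the kallisto-layout tables, against 52.9 and 52.7 TPM in the RSEM-layout tables. Hspb3, a gene with 1 exon (chromosome 13, 113662896 to 113663676), had 6.78 and 7.75 TPM, against 5.58 and 7.46 TPM. Hspb2 thus exceeded Hspb3 by 2.97 ± 0.18 on the log2(TPM + 0.1) scale in the kallisto-layout tables and by 3.01 ± 0.30 in the RSEM-layout tables (SD, n = 2), or 7.83-fold and 8.07-fold. The value of Hspb3 rested on 112 expected counts in replicate 2 and 142 in replicate 1, and the deposited credibility intervals of its TPM, 4.51 to 6.53 and 6.12 to 8.52, overlapped.

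Hspb8 and its partner Bag3 had levels of the same order. Hspb8 (chromosome 5, 116408491 to 116422864) had 191 and 185 TPM in replicates 2 and 1 of the kallisto-layout tables, against 165 and 168 TPM in the RSEM-layout tables. Bag3 (chromosome 7, 128523616 to 128546981) had 128 and 131 TPM, against 116 and 124 TPM. The log2 ratio of Bag3 over Hspb8 was -0.54 ± 0.057 in the kallisto-layout tables and -0.47 ± 0.047 in the RSEM-layout tables, so the mRNA of the scaffold stood at 0.687 and 0.720 times that of the chaperone in TPM, and below it in every library. In expected counts, which are not corrected for length, Bag3 was the higher, with 8396 in replicate 2 and 8519 in replicate 1, against 8309 and 8038 for Hspb8.

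**Figure D2:**
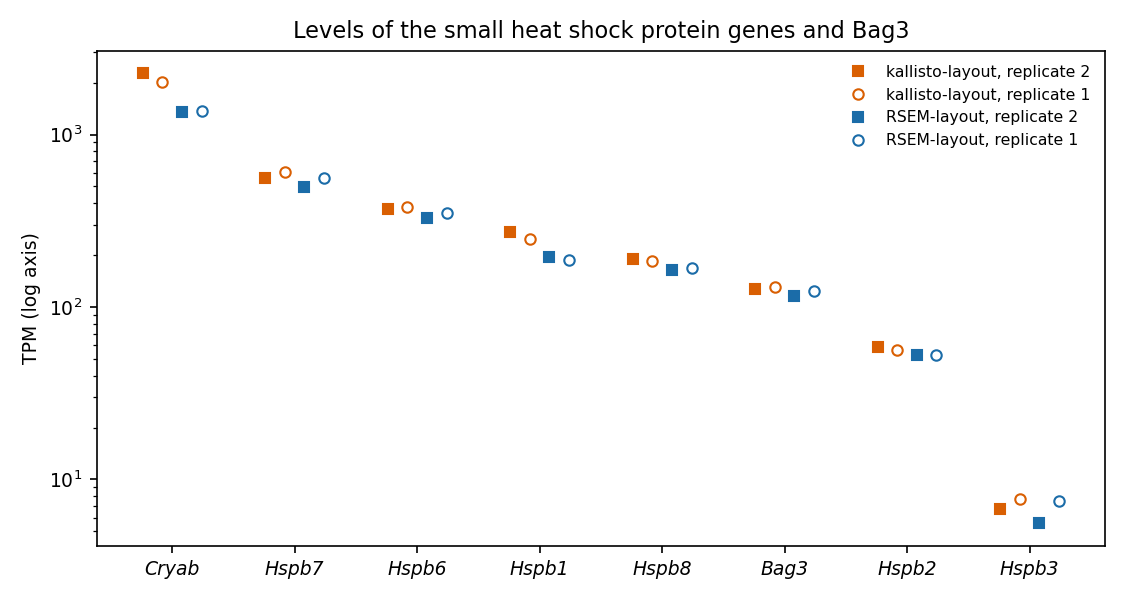
Level of each member in TPM on a log axis, by table layout and replicate; each point is 1 library. The members fall in the same order in all 4 sets of values, from Cryab, at 1356 to 2266 TPM, to Hspb3, at 5.58 to 7.75 TPM.

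The order Cryab, Hspb7, Hspb6, Hspb1, Hspb8, Bag3, Hspb2, Hspb3 was the same by the means of both tables. In each table all 7 neighbouring pairs were separated, in that both libraries of the higher gene lay above both libraries of the lower. The narrowest step was Hspb1 over Hspb8, with means 1.14 times apart in the RSEM-layout tables, where the lower library of Hspb1 was at 186 TPM and the higher of Hspb8 at 168 TPM. In the kallisto-layout tables the same step was 1.38 times. The widest was Hspb2 over Hspb3, with 7.91 and 8.09 times. With 2 libraries, separation describes these libraries and is no test.

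By level alone, the nuclear protein-coding genes nearest to Cryab were Tpt1 and Cox8b, at Euclidean distances of 0.24 and 0.25 over the 4 values of log2(TPM + 0.1) from 2 libraries and 2 tables, among 11335 genes. Tpt1, a translationally controlled protein, had 2326 and 2367 TPM in replicates 2 and 1 of the kallisto-layout tables and 1282 and 1336 TPM in the RSEM-layout tables. Nearest to Bag3 were Mgst3 (0.037) and Txn2 (0.12), with 128 and 127.5 TPM in replicate 2 of the kallisto-layout tables.

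Between the libraries the members moved little. None of the 8 was 1.5-fold or more apart in either table, against 11.4% of nuclear protein-coding genes with a mean of 1 TPM or more in the kallisto-layout tables (11335 genes) and 9.22% in the RSEM-layout tables (11341 genes), shares at which 0 of 8 is not unusual. All 8 also had a mean of 5 TPM or more, and among the 7505 genes of the RSEM-layout tables at that level 4.82% were 1.5-fold apart. Differences under 0.2 on the log2 scale were seen for 7 of 8 members in the RSEM-layout tables, against 57.5% of the 11341 genes. That share was not matched for level. The members had a median of 178 TPM there and those genes one of 8.58 TPM, so the contrast is no measure of stability. The median log2 ratio of the members, replicate 2 over replicate 1, was 0.0033 in the kallisto-layout tables and -0.063 in the RSEM-layout tables, where all such genes had medians of 0.087 and 0.021.

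Hspb3 was the farthest apart, with a log2 ratio of -0.19 in the kallisto-layout and -0.41 in the RSEM-layout tables. In counts scaled to library totals its ratio was 0.767, and the exact 95% interval of 0.593 to 0.989 covers counting error only. Hspb7 was lower in replicate 2 by both, with -0.11 and -0.17, and a count ratio of 0.908 (0.896 to 0.921). Hspb6 with -0.039 and -0.10 and Bag3 with -0.037 and -0.097 had the same sign as Hspb7. Their count ratios were 0.954 (0.930 to 0.978) and 0.958 (0.930 to 0.988).

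Hspb1 was higher in replicate 2 by both tables, with 0.12 and 0.067, as was Hspb2 with 0.068 and 0.0060. Cryab changed sign between the tables, with 0.16 and -0.0048, and so did Hspb8 with 0.044 and -0.029. In counts scaled to library totals the ratio of Cryab was 1.050 (1.031 to 1.069) and that of Hspb8 1.005 (0.974 to 1.036). Those of Hspb1 and Hspb2 were 1.073 (1.029 to 1.119) and 1.037 (0.948 to 1.135). These intervals too cover counting error only. The summed cardiomyocyte markers were 0.958 times as high in replicate 2 as in replicate 1 in the RSEM-layout tables, while in the kallisto-layout tables they were higher in replicate 2, with 49343 against 48020.1 TPM. The part of tissue make-up in these small differences was not tested.

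**Figure D3:**
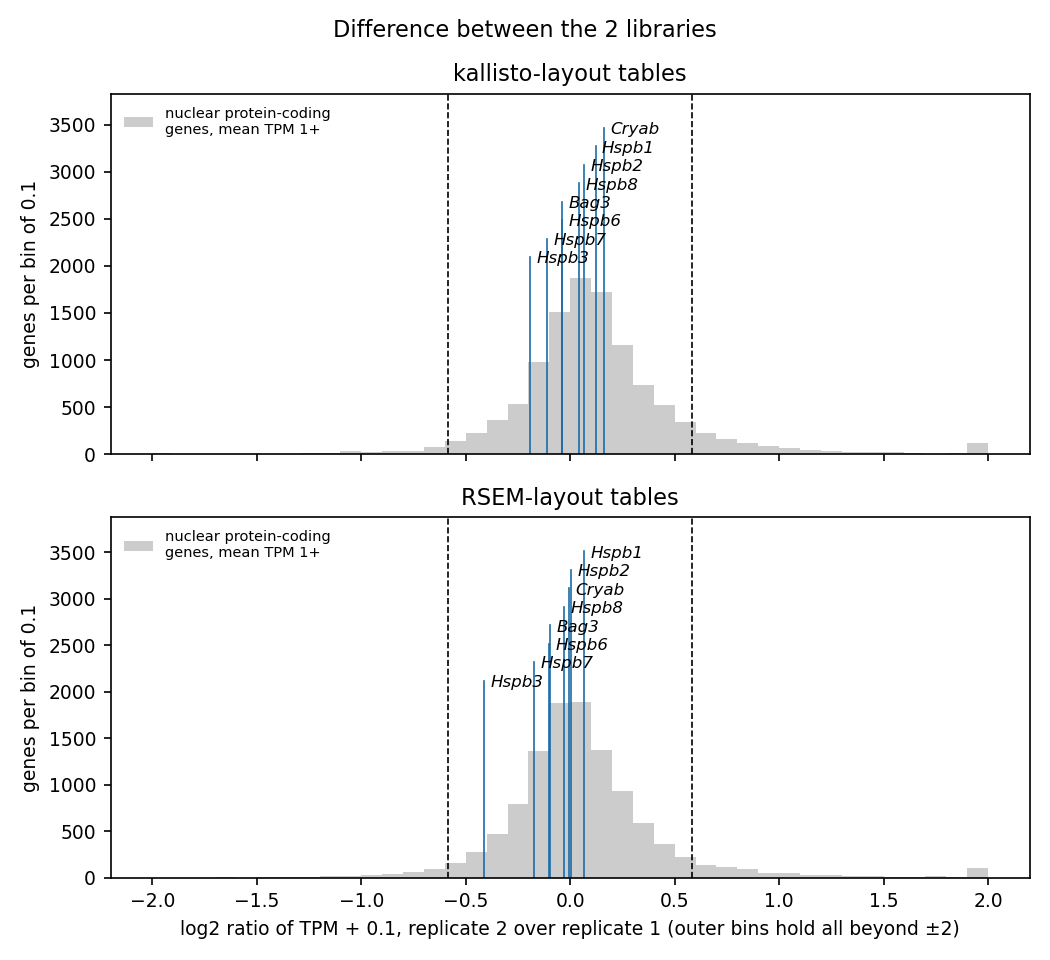
Grey bars give the number of nuclear protein-coding genes by log2 ratio of TPM + 0.1, replicate 2 over replicate 1, with all values beyond ±2 in the outer bins; blue lines mark the 8 members and dashed lines a 1.5-fold difference. All members lie between the dashed lines in both tables, from -0.41 for Hspb3 in the RSEM-layout to 0.16 for Cryab in the kallisto-layout tables.

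Between the quantifications Cryab and Hspb1 differed most. All 8 were higher in the kallisto-layout tables, as were 84.6% of all genes tested, and the median log2 ratio, kallisto-layout over RSEM-layout, was 0.16 for the members and 0.17 for all genes. Cryab was the 1 member 1.5-fold or more apart, against 10.5% of all genes. Its ratio was 1.58-fold, with 1.67-fold in replicate 2 and 1.49-fold in replicate 1, so the call rests on replicate 2. Relative to nuclear protein-coding TPM, which made up 51.4% ± 0.454 of the kallisto-layout and 40.7% ± 0.930 of the RSEM-layout total, no member was 1.5-fold apart.

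For Hspb1 the ratio of tables was 1.36-fold, and for the other 6 members it ran from 1.08-fold for Bag3 to 1.13-fold for Hspb8. The counts differed less than the TPM for Cryab, with 1.09 times as many reads in the kallisto-layout tables. Its effective length, the number of start positions that a quantification allows on a transcript, averaged 400 nt there and 615 nt in the RSEM-layout tables. The RSEM-layout value was 99 nt short of the full length for every member transcript. In nt the gap was of like size for longer transcripts, since Hspb7 had 2445 against 2670 nt and Bag3 had 2238 against 2463 nt. It was a far larger part of the length for Cryab. Hspb1 had 579 against 804 nt, with 1.04 times as many reads in the kallisto-layout tables. The part of effective length in the differences of TPM was not tested. Hspb2 and Hspb3 had fewer reads in the kallisto-layout tables, at 0.763 and 0.801 times the expected counts, over effective lengths of 423 against 641 nt and 457 against 682 nt.

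Cryab and Hspb2 lie head to head, overlapping by 1030 bases of annotated span on opposite strands of chromosome 9. Exons of the genes share 252 bases, and 14.8% of the 31-nt words of Cryab and 26.7% of those of Hspb2 occur in the other gene on the opposite strand. Cryab exceeded Hspb2 by 5.22 ± 0.067 on the log2(TPM + 0.1) scale in the kallisto-layout tables and by 4.68 ± 0.0076 in the RSEM-layout tables (SD, n = 2), or 37.2-fold and 25.7-fold. The shared exon bases belong to Cryab-206, the longest Cryab transcript, which took 0.591% of the TPM of Cryab in the kallisto-layout and 0.020% in the RSEM-layout tables. Whether the quantifications used the strand of the reads was not stated in the labels or the readme, so the level of Hspb2 is uncertain to the extent that antisense reads were counted.

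Transcripts of Cryab were shared out differently by the 2 quantifications. The leading one in both was Cryab-204, a transcript of 585 nt annotated as a retained intron, with 37.2% in replicate 2 and 32.8% in replicate 1 of the kallisto-layout tables and 46.05% and 52.8% in the RSEM-layout tables. Only 117 of its bases lie in no other Cryab transcript. In replicate 2 of the RSEM-layout tables Cryab-205, a protein-coding transcript, led instead.

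Cryab-205 took 3.56% and 15.5% in replicates 2 and 1 of the kallisto-layout tables, against 52.3% and 45.6% in the RSEM-layout tables, and its kallisto-layout share differed between the libraries more than that of any other Cryab transcript. Cryab-203 took 29.3% and 26.6% and Cryab-202 took 23.6% and 17.7% in the kallisto-layout tables, while both were at 0 in both RSEM-layout tables. Cryab-203 and Cryab-205 each have 0 bases that lie in no other Cryab transcript, and Cryab-202 has 71. Reads in shared exons can thus be split between these transcripts in more than 1 way. Cryab-201 held 6.27% ± 0.814 and 1.62% ± 0.035. The protein-coding transcripts of Cryab summed to 1392 ± 44.3 TPM in the kallisto-layout and 687 ± 63.6 TPM in the RSEM-layout tables (SD, n = 2 each).

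Hspb6 was the member whose leading transcript differed between the tables. Hspb6-202, annotated as a processed transcript without a coding sequence, starts at 30552524, inside the upstream window printed above, and Hspb6-201, the protein-coding form, starts at 30553268, inside the downstream window, between its heat shock core and its TATAAA. In the kallisto-layout tables Hspb6-202 took 60.02% in replicate 2 and 53.6% in replicate 1, against 0.46% and 0 in the RSEM-layout tables. Hspb6-201 took 39.9% and 46.2% in the kallisto-layout tables, against 99.5% and 99.9% in the RSEM-layout tables. Hspb6-202 has 0 bases that lie in no other Hspb6 transcript, and Hspb6-201 has 268. The 0 comes from overlap with Hspb6-203, whose first exon (30552178 to 30553062) holds that of Hspb6-202 (30552524 to 30552727). Hspb6-203 took a mean of 0.122% in the kallisto-layout and 0.035% in the RSEM-layout tables. The first exon of Hspb6-202 ends before Hspb6-201 starts, so Hspb6-202 does hold bases that Hspb6-201 lacks. The replicates were close within each table and the tables far apart, so these files do not settle which start the heart used.

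Counting protein-coding transcripts only, an alternative added after the data were seen, Hspb6 had 148 and 177 TPM in replicates 2 and 1 of the kallisto-layout tables, below both libraries of Hspb8, and 327 and 353 TPM in the RSEM-layout tables. It was then the fifth of the members in the kallisto-layout tables and the third in the RSEM-layout tables.

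The other members had the same leading transcript in both tables. Hspb2-201 took 88.2% ± 4.23 of Hspb2 in the kallisto-layout and 84.9% ± 1.71 in the RSEM-layout tables, and Hspb2-202, which starts 61 bases upstream, the rest. Hspb1-201 took 99.8% of Hspb1 in each, and Hspb8-201 took 100% and 99.7% of Hspb8. Hspb3, Hspb7 and Bag3 have 1 annotated transcript each. The leading transcript was thus the same in both tables for 7 of 8 members by mean TPM. Of the 5 members with 2 or more transcripts it was the same for 4, against 76.9% of 10399 nuclear protein-coding genes with 2 or more transcripts.

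**Figure D4:**
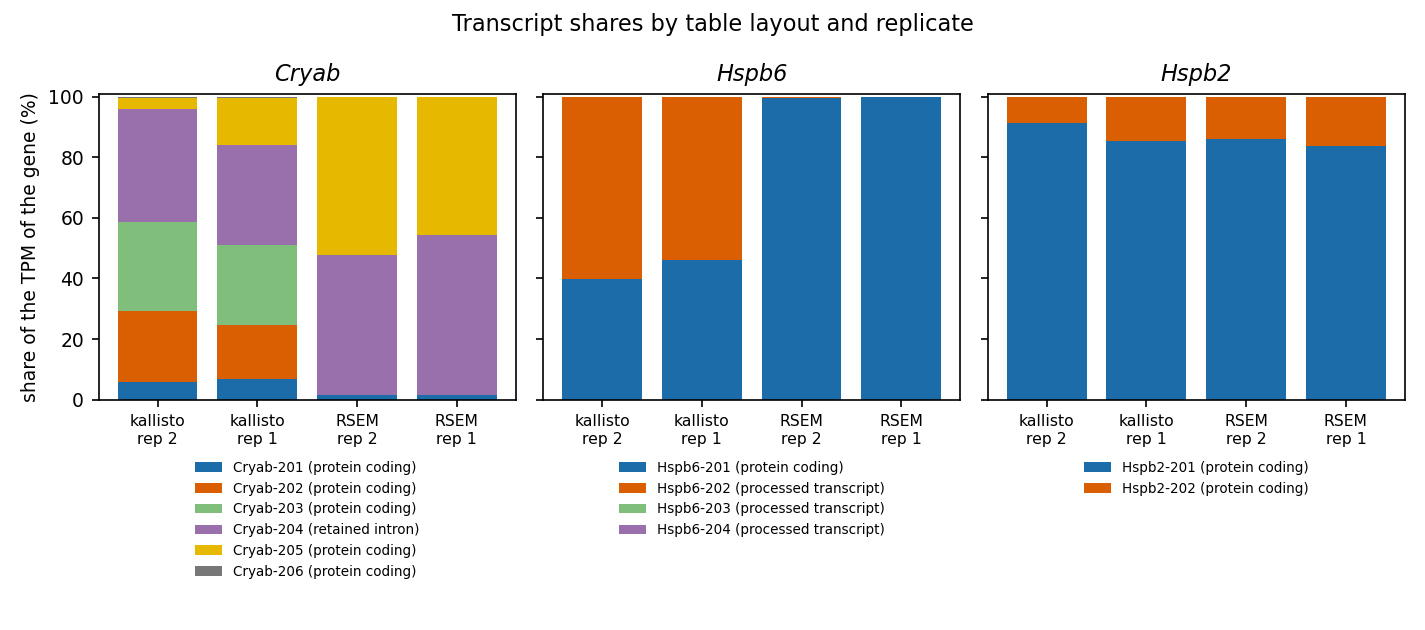
Stacked bars give the share of the TPM of Cryab, Hspb6 and Hspb2 held by each annotated transcript, in percent, for each table layout and replicate. The table layouts differ for Cryab and Hspb6, where Hspb6-202 takes 60.02% and 53.6% in the kallisto-layout tables and under 1% in the RSEM-layout tables, while Hspb2 is split alike.

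The members were set beside 82 genes of the wider chaperone network, of which 78 reached 1 TPM in both libraries. The classes are chosen lists that do not hold every gene of a family. A highest gene or a median given below holds for its list. Among the other genes named as small heat shock proteins or relatives, Cryaa, the lens partner of Cryab, and Odf1, of the sperm tail, were at 0 in both libraries and both tables, and Hspb9, known from testis, was under 1 TPM. Hspb11, which despite its name is a component of the ciliary transport machinery, was the highest of these 4 with 8.01 and 4.69 TPM in replicates 2 and 1 of the kallisto-layout tables, against 5.30 and 3.71 TPM in the RSEM-layout tables.

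The listed chaperones that work downstream of the small heat shock proteins were led by constitutive forms. All 13 listed HSP70 family genes were at 1 TPM or more, with a median of 9.68 TPM in the kallisto-layout and 9.46 TPM in the RSEM-layout tables. Hspa8, the constitutive HSP70, was highest with 821 and 738 TPM in replicates 2 and 1 of the kallisto-layout tables and 678 and 651 TPM in the RSEM-layout tables. The heat-inducible Hspa1a and Hspa1b, near-identical copies whose reads can be split between them, summed to 12.9 and 6.74 TPM and to 12.8 and 6.87 TPM.

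Dnaja2 led the 10 listed HSP40 genes, which hand clients to HSP70, with 112 and 118 TPM in replicates 2 and 1 of the RSEM-layout tables. Hsp90ab1 led the listed HSP90 genes with 527 and 505 TPM. Hspd1, the mitochondrial chaperonin, led the 10 listed chaperonin genes with 163 and 152 TPM. Every listed gene of these 3 classes reached 1 TPM in both libraries.

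Of the 5 other BAG genes, Bag1 was highest with 110.01 and 103 TPM in replicates 2 and 1 of the RSEM-layout tables, both below the corresponding value of Bag3. In the kallisto-layout tables Bag1 had 128.4 and 114 TPM, and its replicate 2 value was slightly above the 127.6 TPM of Bag3, so the order of Bag3 and Bag1 was not the same in every library. The median of these 5 genes was 13.9 TPM in the RSEM-layout tables.

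Among the 14 cochaperones and genes of assisted autophagy, Map1lc3a, a protein of the autophagosome membrane, was highest with 283 and 296 TPM in replicates 2 and 1 of the RSEM-layout tables. The 12 cytoskeletal clients had a median of 116 TPM there, led by titin, Ttn, with 1106 and 1114 TPM. Of the transcription factors, Hsf1, the main heat shock factor, was highest with 15.1 and 16.7 TPM, and Hsf5 was at 0.020 TPM. Capzb, an actin capping subunit, led the 7 BAG3 signalling partners with 139 and 144 TPM.

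**Figure D5:**
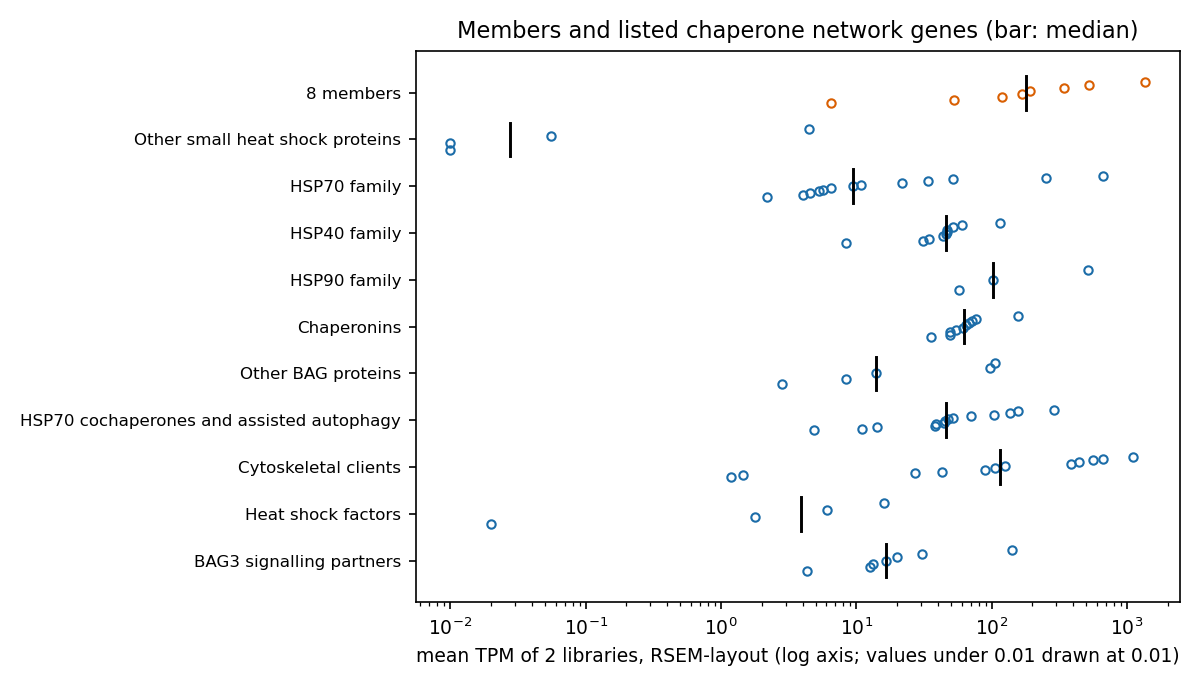
Mean TPM of 2 RSEM-layout tables on a log axis for the 8 members, in orange, and the listed genes of the chaperone network by class, in blue; each circle is a gene, bars are medians, and values under 0.01 TPM are drawn at 0.01. The members have a median of 178 TPM, the listed HSP70 family genes one of 9.46 TPM and the listed cytoskeletal clients one of 116 TPM.

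Of the 78 expressed network genes 3, or 3.85%, were 1.5-fold or more apart between the libraries in the RSEM-layout tables. The same 3 were so in both tables the same way, against 7.34% of genes with a mean of 1 TPM or more. These shares are not like for like, since the network genes had to reach 1 TPM in both libraries. The listed genes also had a higher median, 43.8 against 8.58 TPM in the RSEM-layout tables. Reads can be split between Hspa1a and Hspa1b, so they are not separate observations. Hspa1a was higher in replicate 2, by log2 ratios of 0.82 in the kallisto-layout and 0.84 in the RSEM-layout tables, and Hspa1b by 1.03 and 0.93. Myot, the Z-disc protein myotilin, was lower in replicate 2, with 32.6 against 58.5 TPM in the kallisto-layout and 30.3 against 56.03 TPM in the RSEM-layout tables. In the kallisto-layout tables alone Hspb11 was past that fold as well. Of the members with GAAGTTTC, Hspb1, Hspb6, Hspb8 and Bag3, the largest log2 ratio in either table was that of Hspb1, 0.12. With 1 library on each side this difference from Hspa1a and Hspa1b was not tested. Motif matches of Hspa1a and Hspa1b are not given here, so no contrast by motif can be drawn.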

How the data were processed

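Gene and transcript tables of 2 libraries were used, 3 per library, all on mm10 with GENCODE M21 per the deposited readme. The expected counts and TPM of the RSEM-layout tables were deposited by the authors from transcriptome alignments, and the isoform percent deposited there divides the TPM of a gene among its transcripts. The estimated counts and TPM of the kallisto-layout tables were deposited by the authors from the reads and an index. Neither the labels nor the readme name programs or versions. Bounds of a credibility interval belong to the posterior TPM.

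Members were found by gene symbol, and kallisto-layout transcripts were summed per gene. Members, lists, motifs and tests were chosen with earlier results of these data known. With 1 group no test was made: values are given per library or as mean ± SD over 2 libraries. Logarithms were taken as log2(TPM + 0.1), so ratios of low genes come out too small, and were read against nuclear protein-coding genes with a mean of 1 TPM or more. Count ratios carry exact 95% intervals (Clopper-Pearson, expected counts rounded), which cover counting error only. The limit for a gene at 0 is 3 counts, or 0.0812 CPM in replicate 2 and 0.0836 CPM in replicate 1. The calling rule was also run on simulated counts. These held counting error but no spread between libraries, so they say nothing on that spread. Named were all members, transcripts with 5% or more of a gene, the highest gene of each network class, network genes 1.5-fold apart in both tables, and the nearest 2 genes to Cryab and Bag3; others were named after their values were seen. Alternatives were the other table, posterior mean TPM, rescaling, CPM, pseudocount 1, other thresholds and leaving out a library. Python 3.11.15, numpy 2.4.6 and pandas 2.3.3 were used.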

Additional observations from a re-analysis of the deposited data

How the results depend on the processing

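Detection of the 8 members and the absence of a 1.5-fold difference between libraries had the same counts under every alternative run, except that 7 members reached 10 TPM. Some alternatives could not change these counts. A count of 0 at 1.5-fold stays 0 at 2-fold and with a larger pseudocount. Genes at 1 TPM in both libraries stay so when 1 library is left out or when rescaling enlarges every value. All 7 neighbouring pairs were also separated under each alternative, but the order itself changed in CPM, which is not corrected for length, where Hspb7 lay above Cryab and Bag3 and Hspb8 above Hspb1, and for protein-coding transcripts in the kallisto-layout tables, where Hspb6 fell below Hspb1 and Hspb8. The count of members 1.5-fold apart between tables, 1, was 0 when TPM was rescaled over nuclear protein-coding genes and 0 at 2-fold, and ranged from 0 to 1 when either replicate was left out. Network genes 1.5-fold apart between libraries in the RSEM-layout tables fell to 0 at 2-fold, while Hspa1b was 2.08-fold apart in the kallisto-layout tables. The summed level of 2763 TPM was 3747 TPM in the kallisto-layout tables, 6794 TPM after rescaling, which enlarges every value by construction, and 2090 TPM for protein-coding transcripts alone, and it ranged from 2714 to 2811 TPM without either replicate. The same leading transcript in both tables was found for 6 to 7 members without either replicate. Of 49 alternative levels of single members 20 moved by more than 1 SD of the 2 libraries, and of 40 alternative log2 ratios 12 moved by more than counting error, within -0.41 to 0.16. Leaving out a library could not move a level by 1 SD of the 2 libraries, and rescaling moved every level. The tally of levels is thus no measure of stability. Without a filter on low values 13.3% of genes were 1.5-fold apart in place of 9.22%. No paired analysis was possible because there is 1 group. The value of Hspb3 rests on 112 and 142 counts.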
